A study of Homo sapiens with 24 samples.

Results

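SNU475 and HepG2 are established human liver cancer cell lines, and their untreated cultures were compared here across all genes and repeat families. The comparison rests on 4 of the 24 libraries of the series: replicates A and B of SNU475 and replicates A and B of HepG2, all given the vehicle Dulbecco's phosphate-buffered saline (DPBS) only. The members were chosen by line and treatment from the labels, not by any measured value. The labels call both lines wild type and hepatocellular carcinoma and give the American Type Culture Collection as their source. HepG2 was harvested on day 14 and SNU475 on day 21, so line and culture time cannot be told apart. The other 20 libraries hold the line SNU398 and cultures dosed with decitabine, which blocks DNA methyltransferases, with GSK-126, which blocks EZH2, the enzyme that methylates histone H3, or with both, at daily doses of 100 nM and 500 nM for 3 days. Each group is 1 line with 2 libraries that the labels do not state to be separate cultures, so p-values measure the spread between libraries, which may be technical.

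A mature hepatocyte secretes albumin, clotting factors and lipoproteins, clears ammonia and makes glucose and bile acids. A network of transcription factors around HNF4A and the FOXA proteins keeps these genes on. Liver cancer cells in culture keep this programme to different degrees, and lines that have lost it often carry an actin-rich, matrix-producing mesenchymal programme, with vimentin filaments and collagens, in its place.

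Gene levels are scaled RPKM, meaning reads per kilobase of gene and per 1e6 reads divided by a factor for each library, and 0.5 was added before taking log2. A pair of values is replicate A and then replicate B, and the pair after "against" is the other line. A positive log2 difference means higher in SNU475. This addition makes differences of genes near 0 appear smaller than they are. A gene was called when limma's p, adjusted by the Benjamini-Hochberg method over the 19377 genes tested, was under 0.05. The counts below also ask for at least a 2-fold difference unless stated. The spread behind p was pooled over all 24 libraries, dosed and SNU398 ones included. With the 4 DPBS libraries alone, limma's adjusted p was 0.00661 instead of 1.09e-05 for ALB and 1.62e-05 instead of 3.64e-18 for ACAT2. That fit called 3449 genes higher in SNU475 and 2815 in HepG2. The read totals behind the RPKM were 51.7 (A) and 47.8 (B) in HepG2 and 52.98 (A) and 50.9 (B) in SNU475, in units of 1e6 reads. HepG2 libraries had 25476 and 25499 genes above 0, and SNU475 libraries had 28757 and 28478.

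Replicate A of SNU475 stood apart in its low levels of HepG2 genes. The 30 most abundant HepG2 genes that the dosed SNU475 libraries held at under 0.1% of the HepG2 level were followed through every library. In SNU475 replicate A they stood at a median of 0.538% of the HepG2 DPBS level, and in replicate B at 0.0376%. Medians in the dosed SNU475 libraries ran from 0.0117% to 0.129%. Low values in those dosed libraries were a condition for choosing the genes, so their range is no neutral reference for A or B. Replicate A of decitabine-dosed SNU398 was the other library above 0.4%, at 0.402%. Among the 140 genes called higher in HepG2 with at least 100 RPKM there, 28 were more than 2-fold higher in SNU475 replicate A than in B and 0 were more than 2-fold higher in B. The source of these reads was not tested, and values of liver genes in SNU475 are therefore given for A and B separately. Leaving out replicate A changed the number of genes called from 3450 to 3466 higher in SNU475 and from 2825 to 2840 higher in HepG2. The plot of HepG2 genes across the libraries of the other lines shows the gap.

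**Figure D1:**
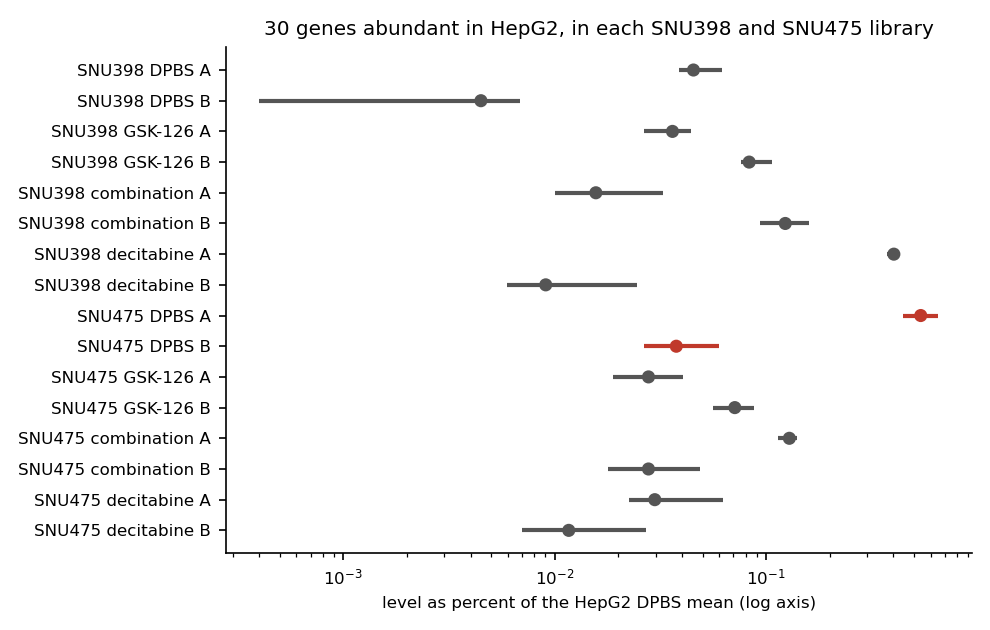
Levels of 30 genes abundant in HepG2 in each SNU398 and SNU475 library, as percent of their HepG2 DPBS mean on a log axis; points are medians over the genes, lines run from the 25th to the 75th percentile, and the untreated SNU475 libraries are red. SNU475 DPBS A has the highest median, 0.538%, while SNU475 DPBS B lies at 0.0376%. That is within the range of the dosed SNU475 libraries, where low values were a condition for choosing the genes.

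The lines differed across most of the expressed genome. Of the 19377 genes tested, 15376 were called at any size (79.4%), 8222 of them higher in SNU475 and 7154 higher in HepG2. At least 2-fold, 3450 genes were higher in SNU475 (17.8%) and 2825 were higher in HepG2 (14.6%). At least 8-fold, the numbers were 551 and 486, and at least 32-fold 94 and 129. The libraries of the lines did not overlap for any gene called at 2-fold, which such a call between groups of 2 libraries nearly ensures. Across the tested genes, which are not independent replicates, log2 levels correlated with r = 0.994 between the SNU475 replicates, 0.996 between the HepG2 replicates and 0.736 between the lines. The median log2 difference over all genes was 0.04, the value against which each list below can be read. It was 0.15 without the scaling of libraries. Counts of called genes in a list can be read against the shares over all genes, 17.8% and 14.6%.

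**Figure D2:**
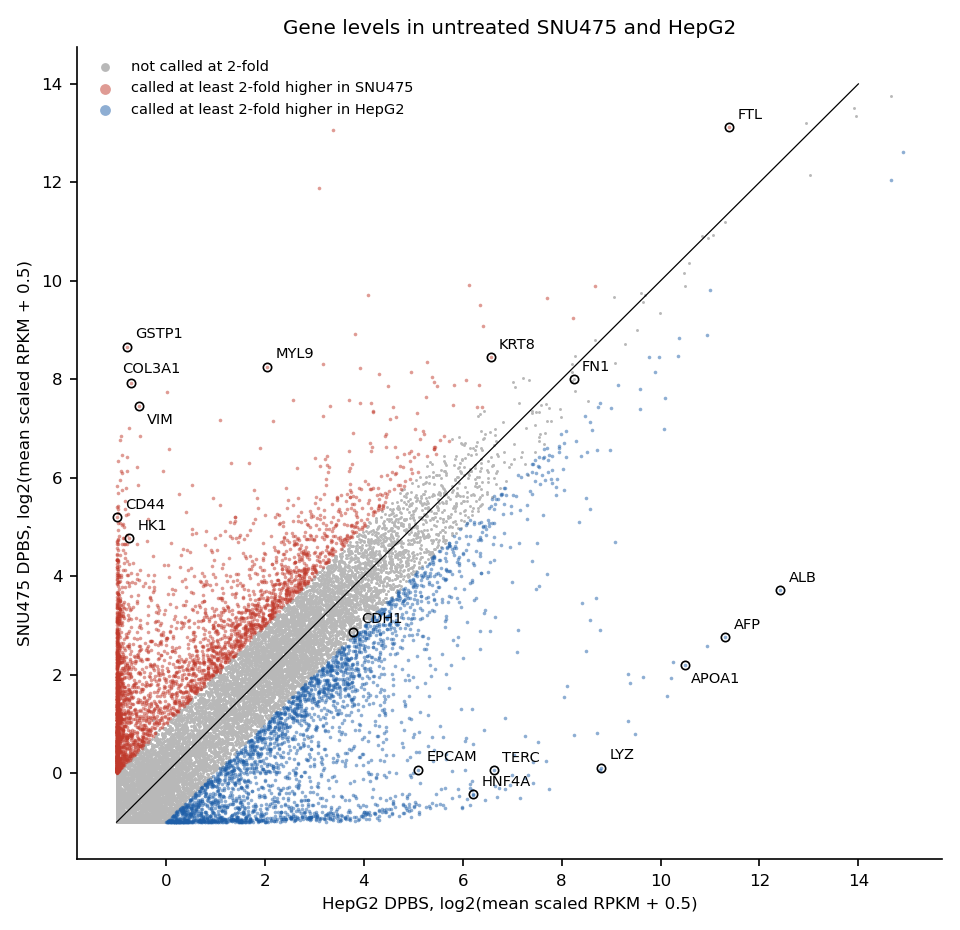
Mean level of each tested gene in untreated HepG2 (x) and SNU475 (y), as log2 of scaled RPKM plus 0.5; red and blue genes were called at least 2-fold higher in SNU475 (3450) or HepG2 (2825), grey genes were not, and the line marks equal levels. Liver genes such as ALB and AFP lie far to the lower right, GSTP1, COL3A1 and VIM to the upper left, and FN1 close to the line.

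Every tested plasma protein gene was lower in SNU475. In bulk RNA, fewer cells that express a gene and less of its RNA per cell cannot be told apart. All 29 genes of that list were called higher in HepG2, with a median log2 difference of -6.55, or -6.83 without SNU475 replicate A. Albumin (ALB, hg19 chr4:74262831-74287129), the main protein of plasma, stood at 5409 and 5537 scaled RPKM in HepG2 and at 24.1 (A) and 1.09 (B) in SNU475. Its log2 difference was -9.77 ± 1.39 (SE, limma, adjusted p = 1.09e-05), and -11.75 without replicate A. APOA1, the main protein of high-density lipoprotein, stood at 1473 and 1412 in HepG2 and at 7.77 and 0.424 in SNU475. The iron carrier transferrin (TF) was at 646 in both HepG2 libraries and at 3.02 and 0.163 in SNU475. SNU475 was far below HepG2 for each of them in both replicates. Differences in the list ran from -9.77 to -2.65. Its summed level was 171 (A) and 80.1 (B) in SNU475 against 18250 and 18200 in HepG2. Fibrinogen beta (FGB), a clotting protein, was at 13.5 and 13.2 in the SNU475 libraries against 185 and 189 in HepG2. Its SNU475 replicates were alike, unlike those of ALB. Transthyretin (TTR), a thyroid hormone carrier, was at 61.2 and 63.7 in HepG2 and at 0.174 and 0.0548 in SNU475.

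The upstream sequence of liver genes is shown because these genes differed most between the lines. Of the 12 protein-coding genes with the lowest difference, 9 had an entry in the RefSeq promoter table (GRCh38.p14), and of the 12 with the highest, 10. The 250 bases before the start of ALB (chr4:73404037-73404286) and AFP (chr4:73435971-73436220), both on the plus strand, follow, with the motif GTTAAT, known from liver promoters and searched on both strands, in capitals.
ALB: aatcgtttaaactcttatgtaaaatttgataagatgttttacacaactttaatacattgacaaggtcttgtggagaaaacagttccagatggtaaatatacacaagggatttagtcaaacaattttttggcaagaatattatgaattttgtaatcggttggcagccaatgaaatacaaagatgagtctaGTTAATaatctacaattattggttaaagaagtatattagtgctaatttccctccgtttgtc
AFP: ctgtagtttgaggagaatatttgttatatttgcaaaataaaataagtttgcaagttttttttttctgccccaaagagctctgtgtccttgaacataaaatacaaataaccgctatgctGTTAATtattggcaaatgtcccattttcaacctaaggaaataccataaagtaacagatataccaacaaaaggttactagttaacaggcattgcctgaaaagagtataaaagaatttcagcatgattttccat
The ALB window held this motif 1 time, beginning 61 bases before the start, and the AFP window 1 time, 132 bases before it. APOH held it 2 times, and AHSG, APOA2, TF, HIST1H3C, SERPINA1 and RBP4 did not hold it in their windows. Here and for the CG counts below, a single RefSeq start was used for each gene, matched by symbol. Whether these lines use that start was not tested, so a window without the motif does not mean that the gene's liver promoter lacks it. It occurred in 3.55% of the 11116 windows matched among 13727 protein-coding genes tested. A match is a description of these letters and not a binding site.

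The transcription factors of the hepatocyte network were lower in SNU475 too. Of 22 tested, 16 were called higher in HepG2, 0 in SNU475, and 6 did not reach 2-fold, with a median of -2.52. At any size, 20 were called higher in HepG2 and 2 in SNU475. HNF4A, the nuclear receptor at the centre of the network, stood at 74.7 and 72.9 in HepG2 and at 0.432 (A) and 0.0509 (B) in SNU475, a log2 difference of -6.70 ± 0.20 (adjusted p = 8.44e-14, limma). FOXA2, a pioneer factor, was at 18.2 and 17.6 in HepG2 and at 0.104 and 0.0288 in SNU475. CEBPA, which drives hepatocyte maturation, was at 3.15 and 2.77 against 0.0545 and 0.0288. The bile acid receptor partner NR0B2 (-5.96) and PROX1 (-4.89), a hepatoblast factor, were called as well. ONECUT2 (0.41), in contrast, had a small positive difference. Of the defining hepatocyte markers, ALB, AFP, HNF4A and FOXA2 were at most 1.09 in SNU475 replicate B.

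Hepatocyte metabolism followed in part. Of 27 tested genes, 20 were called higher in HepG2 and 0 in SNU475, with a median of -2.90. FABP1, the liver fatty acid carrier, was at 162 and 155 in HepG2 and at 0.901 and 0.0538 in SNU475. SULT2A1, a steroid sulfotransferase, was at 102 and 104 against 0.408 and 0.00961, and MTTP, which loads lipid onto apolipoprotein B, at 38.8 and 40.6 against 0.207 and 0.0211. In the urea cycle, ARG1 (10.9 and 11.2 against 0 and 0.00961) and CPS1 (3.33 and 3.31 against 0.0210 and 0.00384) were called, but ASS1 was nearly level, at 14.0 and 14.1 in HepG2 and 11.3 and 11.1 in SNU475. FBP1, a gluconeogenic enzyme, was low in both lines, at 0.257 and 0.220 in HepG2 against 0.216 and 0.272 in SNU475.

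HepG2 held the fetal liver genes. AFP, the fetal counterpart of albumin, stood at 2531 and 2546 in HepG2 and at 11.53 (A) and 0.962 (B) in SNU475. IGF2, a fetal growth factor, was at 737 and 692 against 2.32 and 0.160, and DLK1, a hepatoblast surface protein, at 116 and 113 against 0.559 and 0.0413. GPC3, a surface proteoglycan of liver tumours, had a difference of -5.79. Of 16 oncofetal and progenitor genes, 8 were called higher in HepG2 and 3 in SNU475, with a median of -1.13. The 3 higher in SNU475 were the surface protein PROM1 (3.01), the transcription factor SOX4 (1.76) and the keratin KRT7 (1.32). KRT19, a biliary keratin, was present in both lines at 40.0 and 38.04 in HepG2 and 26.4 and 28.2 in SNU475. H19 was low and uneven, at 0.214 and 1.90 in HepG2 and 0.814 and 1.05 in SNU475, and its libraries overlapped.

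Targets of Wnt signalling were higher in HepG2. HepG2 is known to carry a stabilised form of beta-catenin, the transcriptional partner of this pathway. Whether that form bears on the differences below was not tested. Of 21 targets tested, 13 were called higher in HepG2 and 0 in SNU475, with a median of -2.48. NOTUM, which inactivates Wnt proteins, stood at 75.6 and 70.1 in HepG2 and at 0.670 and 0.107 in SNU475. The transcription factor SP5 was at 51.2 and 48.03 against 0.482 and 0.129, and the stem cell receptor LGR5 at 16.2 and 16.7 against 0.110 and 0.0106. AXIN2, a feedback inhibitor, was at 12.1 and 11.99 against 1.76 and 1.74, and glutamine synthetase (GLUL), a pericentral liver enzyme, at 55.3 and 54.6 against 6.15 and 5.89. The AXIN2 and GLUL levels of the SNU475 replicates were alike. MYC (-0.88) and CCND1 (-0.14), which many pathways induce, did not reach 2-fold.

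Growth factor receptors went both ways. Of 19 tested, 7 were called higher in HepG2 and 5 in SNU475. ERBB3, FGFR4 and FGFR3 were among the HepG2 receptors, with differences of -5.43, -5.30 and -5.15. FGFR4, the receptor for the gut hormone FGF19, was at 51.04 and 49.2 in HepG2 and at 0.953 and 0.641 in SNU475. AXL, a receptor of mesenchymal cells, was among those in the other direction, at 39.2 and 38.4 in SNU475 and 0.795 and 0.832 in HepG2. EGFR was at 9.32 and 9.48 in SNU475 against 1.79 and 1.77, and MET, the hepatocyte growth factor receptor, at 29.2 and 28.9 against 13.5 and 14.2. FGFR1 was close to level, at 5.72 and 5.73 against 5.34 and 5.38.

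The mesenchymal list was the mirror image. Of 28 genes tested, 22 were called higher in SNU475 and 3 in HepG2, with a median of 2.47. Vimentin (VIM, hg19 chr10:17270258-17279592), the intermediate filament of mesenchymal cells, stood at 173 and 179 in SNU475 and at 0.194 and 0.167 in HepG2, a log2 difference of 8.02 ± 0.19 (adjusted p = 5.25e-15, limma). CD44, the hyaluronan receptor, was at 36.2 and 36.5 against 0.00222 and 0.00658. GREM1, a secreted BMP antagonist, was at 68.2 in both SNU475 libraries and at 0.0211 and 0.0548 in HepG2. SPARC, a matrix-binding protein, was at 142 and 141 against 3.97 and 3.999. These levels left no overlap between the lines.

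The regulators of that state were also higher in SNU475. TWIST1 was at 10.04 and 9.18 in SNU475 and at 0.0322 and 0.0110 in HepG2, ZEB1 at 8.55 and 8.67 against 1.46 and 1.44, and ZEB2 at 2.06 and 2.02 against 0.00333 and 0. SNAI2 was at 7.08 and 6.86 against 1.47 and 1.54. N-cadherin (CDH2), which liver cells also carry, was at 76.98 and 76.2 against 13.03 and 12.9. The list did not move as a block. LOX (-2.24), which crosslinks collagen, and the receptor TGFBR2 (-1.28) were among those higher in HepG2. Fibronectin (FN1), which hepatocytes secrete into plasma, was at 304 and 302 in HepG2 and 254 and 260 in SNU475, a log2 difference of -0.24.

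Matrix genes were higher in SNU475 too. Of 27 collagen and basement membrane genes, 20 were called higher in SNU475 and 2, FBLN1 and NID1, in HepG2, with a median of 2.42. COL3A1, a fibrillar collagen of soft tissue, was at 242 and 240 in SNU475 and 0.123 and 0.0943 in HepG2, and COL5A2, its fibril partner, at 115 in both against 0.234 and 0.163. The basement membrane chains COL4A1 (51.6 and 51.2 against 0.0166 and 0.00877) and COL4A2 (69.6 and 70.2 against 0.0277 and 0.0351) differed alike. These genes sit head to head and share a promoter region. The type I collagen of activated fibroblasts was low in SNU475 by comparison, with COL1A1 at 2.50 and 2.60 and COL1A2 at 0.204 and 0.183. SNU475 thus held COL3A1 far above COL1A1, per length of gene.

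Integrins went both ways. Of 15 tested, 6 were called higher in SNU475 and 3 in HepG2. The fibronectin receptor chain ITGA5 was at 33.0 and 33.6 in SNU475 and at 0.0144 and 0.0329 in HepG2, ITGA3, a laminin receptor, at 56.1 and 57.9 against 0.175 and 0.171, and ITGA4 at 19.96 and 19.4 against 0 and 0.00329. ITGB2, known from leukocytes, was in HepG2, at 5.33 and 5.14 there. Of 25 actin and contractile genes, 18 were called higher in SNU475 and 0 in HepG2, with a median of 2.34. The filamin FLNC, an actin crosslinker, was at 108 and 110 in SNU475 and at 0.0300 and 0.0121 in HepG2. Myosin light chain MYL9 was at 293 and 317 against 3.85 and 3.43, and caveolin CAV1, which shapes membrane pits, at 40.5 and 40.8 against 0.00555 and 0.0110. Among the 12 highest differences of all coding genes were also MSN (115 and 114 against 0.0322 and 0.0274), which ties actin to the membrane, and the actin-binding peptide TMSB4X (217 and 210 against 0.566 and 0.471).

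YAP is a transcriptional coactivator that responds to spreading and tension of cells, and 16 of its 20 listed targets were called higher in SNU475, 2 in HepG2 (median 1.92). CYR61 was at 189 and 191 in SNU475 and 5.14 and 5.63 in HepG2. CTGF, the other classical target, was high in both lines, at 174 and 169 against 84.6 and 82.8. MYOF and TGFB2 had differences of 5.93 and 6.03. Of 18 metalloproteases and inhibitors, 11 were called higher in SNU475 and 3 in HepG2. ADAM12 was at 9.94 and 10.1 and MMP7 at 8.07 and 7.64 in SNU475, and both were listed at 0 in both HepG2 libraries. TIMP3, an inhibitor of these enzymes, went the other way, at 59.2 and 59.5 in HepG2 and 0.431 and 0.172 in SNU475. Among 12 S100 calcium-binding genes, 7 were called higher in SNU475, with S100A6 at 478 and 493 against 14.3 and 12.97 and S100A11 at 311 and 325 against 8.90 and 8.17. The other direction held S100P (-5.005) and S100A1 (-4.64).

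**Figure D3:**
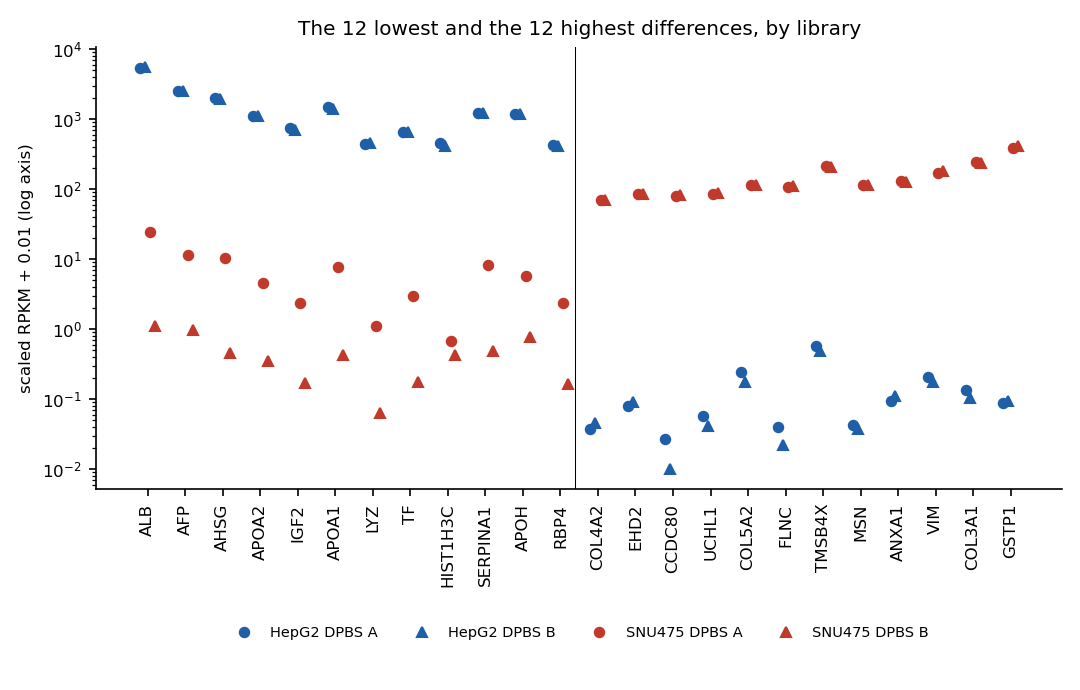
Scaled RPKM plus 0.01, on a log axis, of the 12 coding genes with the lowest and the 12 with the highest log2 difference among those called; circles are replicate A, triangles replicate B, HepG2 is blue and SNU475 red. Absence of overlap between the lines was a condition for choosing the 24 genes. SNU475 replicate A lies above replicate B for all 12 HepG2 genes, for example 24.1 against 1.09 for ALB.

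Epithelial genes did not fall as a group. Of 33 tested, 13 were called higher in HepG2 and 6 in SNU475, with a median of -0.60. The simple-epithelium keratins were higher in the line with vimentin: KRT8 was at 348 and 353 in SNU475 and 95.8 and 92.5 in HepG2, and KRT18 at 250 and 259 against 66.9 and 65.9. The SNU398 DPBS mean of KRT8 was 0.213, and that of VIM was 327. E-cadherin (CDH1), the junction protein whose loss is used to define mesenchymal transition, was at 6.86 and 6.80 in SNU475 against 13.2 and 13.4 in HepG2, a log2 difference of -0.91. Occludin (OCLN) was at 1.99 and 1.96 against 3.24 and 3.13. SNU475 therefore held keratins and E-cadherin transcripts along with VIM, ZEB1 and TWIST1. Far lower in SNU475 were EPCAM (0.702 and 0.397 against 33.4 and 33.96), the splicing factor ESRP2 (0.0421 and 0.00384 against 6.43 and 6.30), the microvillar protein VIL1 (0.368 and 0.0413 against 54.5 and 54.1) and CLDN1 (0.788 and 0.613 against 18.7 and 20.4). CLDN7, another tight junction claudin, was higher in SNU475 (3.54), as were SPINT1 (1.97) and ELF3 (1.99).

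With 0.5 added before log2, GSTP1 had the highest log2 difference of the coding genes (hg19 chr11:67351066-67354131), a glutathione transferase that is a known methylation target in liver cancer. It stood at 393 and 414 in SNU475 and at 0.0776 and 0.0833 in HepG2, a log2 difference of 9.44 ± 0.27 (adjusted p = 4.57e-14, limma). The order depends on the added constant: with voom on recovered reads the difference of GSTP1 was 12.19 and that of CCDC80 was 13.62. The SNU398 DPBS mean was 0.207. In HepG2 dosed with decitabine GSTP1 was at 7.26 and 8.21, with GSK-126 at 0.167 and 0.178, and with both at 17.2 and 17.7, all below every SNU475 library. Methylation was not measured in these libraries. The 250 bases before its start (GRCh38.p14 chr11:67583562-67583811, plus strand) are shown for their density of CG, the pair that DNA methyltransferases modify, which is in capitals.
GSTP1: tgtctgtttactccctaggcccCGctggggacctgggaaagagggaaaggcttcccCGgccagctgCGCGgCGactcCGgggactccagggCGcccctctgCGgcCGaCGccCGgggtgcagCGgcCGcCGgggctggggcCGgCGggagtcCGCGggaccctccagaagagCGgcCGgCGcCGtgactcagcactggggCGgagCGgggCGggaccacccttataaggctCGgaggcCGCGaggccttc
The window held 28 CG pairs. The median over all matched windows was 21, and 82.8% of them held at least 10. Other genes of the highest 12 ranged from 0 (ANXA1) and 1 (CCDC80) to 38 (FLNC) and 40 (COL4A2), so high CG content was not shared by all of them.

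Among genes known to be silenced by methylation in liver cancer, 13 of 32 tested were called higher in SNU475 and 4 in HepG2, with a median of 0.36. The cell cycle inhibitors CDKN2A (5.90 and 5.87 against 0.317 and 0.313) and CDKN2B (4.38 and 4.53 against 0.285 and 0.260) were higher in SNU475. SOCS3, a brake on cytokine signalling, was at 17.9 and 17.5 against 0.684 and 0.740, and DKK3 at 13.3 and 13.6 against 0.00887 and 0.00877. TIMP3, described above, and DLC1 and MGMT were among those higher in HepG2. RASSF1 did not pass the test (2.002 and 1.94 against 2.12 and 2.18, adjusted p = 0.0561, limma). It did with quantile normalization (limma's adjusted p = 0.00186), with an added constant of 0.1 (0.0477) and with the 16 libraries of both lines (0.0456).

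The enzymes that the drugs of the series act on were present in both lines. DNMT1, which copies methylation after replication, was nearly level, at 8.91 and 9.11 in SNU475 and 10.1 and 9.86 in HepG2. Its log2 difference was -0.14, and 0.05 without library scaling. UHRF1, which recruits DNMT1, was at 2.94 and 3.001 in SNU475 against 19.03 and 18.4 in HepG2, a log2 difference of -2.47 ± 0.03 (adjusted p = 1.4e-18, limma). DNMT3A, a de novo methyltransferase, was at 2.59 and 2.47 against 10.8 and 10.5, and DNMT3B at 2.99 and 2.84 against 3.01 and 3.29 (adjusted p = 0.0551). DNMT3B passed with quantile normalization (adjusted p = 0.00281), without SNU475 replicate A (0.0442) and without HepG2 replicate A (0.0115). In the Polycomb complex that methylates histone H3, the catalytic subunit EZH2 was at 5.61 and 5.54 in SNU475 and 8.37 and 8.80 in HepG2 (-0.58), while its partners SUZ12 (0.73) and EED (0.59) and its paralog EZH1 (1.34, at 4.11 and 4.30 against 1.29 and 1.42) were higher in SNU475. Of 15 methylation genes, 3 were called in each direction. Of 26 Polycomb and demethylase genes, 5 were called higher in SNU475 and 1, CBX2, in HepG2. Over all genes tested, 17.8% were called higher in SNU475 and 14.6% in HepG2.

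Many cancer-testis antigens, genes that are normally off outside the germ line, were on in SNU475. Of 21 tested cancer-testis antigens, 12 were called higher in SNU475 and 0 in HepG2. MAGEA12 was at 19.5 and 19.6 in SNU475 and at 0 and 0.0121 in HepG2, MAGEA3 at 17.9 and 17.3 against 0.00998 and 0, and GAGE2A at 23.5 and 22.7 with HepG2 listed at 0. The summed level of the list was 125 and 123 in SNU475 and 0.761 and 0.830 in HepG2. MAGEA and GAGE genes are near-identical copies, so single members are uncertain. Meiosis genes were mostly low in both lines, and 2 of 11 were called, TEX15 (1.62 and 1.52 against 0.0588 and 0.0746) and SYCP2 (1.08 and 1.02 against 0.0133 and 0.0208), both higher in SNU475. That count is near the share over all genes (17.8%), and the list median was 0.02 against 0.04 over all genes.

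HOX genes, which give cells their position along the body axis, separated the lines by cluster. All 9 tested HOXB genes were positive and 8 were called higher in SNU475, with a summed level of 27.5 and 26.5 against 0.0322 and 0.0219 in HepG2. HOXB7 was at 8.50 and 7.51 in SNU475 and at 0.0144 and 0.0154 in HepG2, and HOXB8 at 4.53 and 4.75 with HepG2 listed at 0. In HOXC, 6 of 7 were called higher in SNU475, among them HOXC10 (5.11 and 5.58 against 0.0643 and 0.128). In HOXD, 4 of 8 were higher in SNU475, among them HOXD10 (6.32 and 6.39 against 0.0244 and 0), and HOXD1 was higher in HepG2. In HOXA, 4 of 10 were higher in SNU475, and HepG2 held HOXA5 at 1.29 and 1.63 against 8.75 and 8.80.

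Imprinted genes, expressed from 1 parental copy, had 6 of 22 called higher in SNU475 and 5 in HepG2. Besides IGF2 and DLK1, the zinc finger gene PEG3 was a HepG2 gene, at 67.01 and 68.02 against 0.356 and 0.0288. NDN was at 21.5 and 20.8 in SNU475 and 0.0111 and 0 in HepG2, and the growth inhibitors PHLDA2 and CDKN1C had differences of 3.36 and 2.197.

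Some genes were listed at 0 in both libraries of 1 line while reaching at least 5 RPKM in both of the other. There were 31 in this class expressed in SNU475, 26 of them protein-coding, and 1 expressed in HepG2, the antisense gene HNF4A-AS1 (9.81 and 8.05). In SNU475 they included the mucin MUC1 (7.08 and 7.18), the myosin-binding protein MYBPH (18.8 and 20.6), the thrombin receptor F2RL2 (16.5 and 16.1), the actin nucleator FMN2 (8.42 and 8.57) and the mineralisation inhibitor MGP (12.3 and 11.9). FMN2 had 4523 and 4403 reads in SNU475. For 24 of the 31, at least 1 coding neighbour within 500 kb was above 0.5 RPKM in HepG2. No fold is given for these genes. The counts of 31 and 1 cannot be compared. A gene expressed in HepG2 had to be at 0 in SNU475 replicate A to enter the class. That library held 30 abundant HepG2 genes at a median of 0.538% of their HepG2 level.

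Antigen presentation and interferon genes were higher in SNU475. Of 18 MHC class I genes, 13 were called higher in SNU475 and 1 in HepG2, with a median of 1.66. HLA-B was at 190 in both SNU475 libraries and 12.7 and 12.4 in HepG2, and B2M, the shared light chain, at 329 and 324 against 37.3 and 39.3. The immunoproteasome subunit PSMB9 was at 13.2 and 13.3 against 0.831 and 0.799. HLA genes are polymorphic and have copies on alternate assemblies, so their levels are uncertain. ERAP2, which trims peptides, was higher in HepG2 (-1.57). Of 39 interferon-stimulated genes, 24 were called higher in SNU475 and 2, USP18 and MX2, in HepG2, with a median of 1.51. GBP1 was at 8.07 and 8.06 against 0.202 and 0.179, and IFITM3 at 168 and 175 against 24.3 and 23.04. ISG15 did not share the direction, at 7.84 and 7.19 against 12.2 and 11.3. MX1 was low in both lines, at 0.705 and 0.747 against 0.342 and 0.367.

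Cytokines split. Of 20 tested, 10 were called higher in SNU475 and 4 in HepG2. The macrophage growth factor CSF1 was at 22.4 and 22.6 in SNU475 against 1.44 and 1.33, and the neutrophil chemokine IL8 at 10.3 and 9.15 against 1.42 and 1.38. IL6 was at 2.24 and 1.98 in SNU475 and listed at 0 in HepG2. HepG2 held CCL20 (69.97 and 69.9 against 0.568 and 0.141) and CX3CL1 (23.1 and 22.2 against 0.305 and 0.111). The class II chaperone CD74 was also a HepG2 gene, at 24.9 and 23.3 against 0.340 and 0.112, and HLA-DMA was a SNU475 gene (2.67). The remaining 4 tested class II genes were not called at 2-fold.

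**Figure D4:**
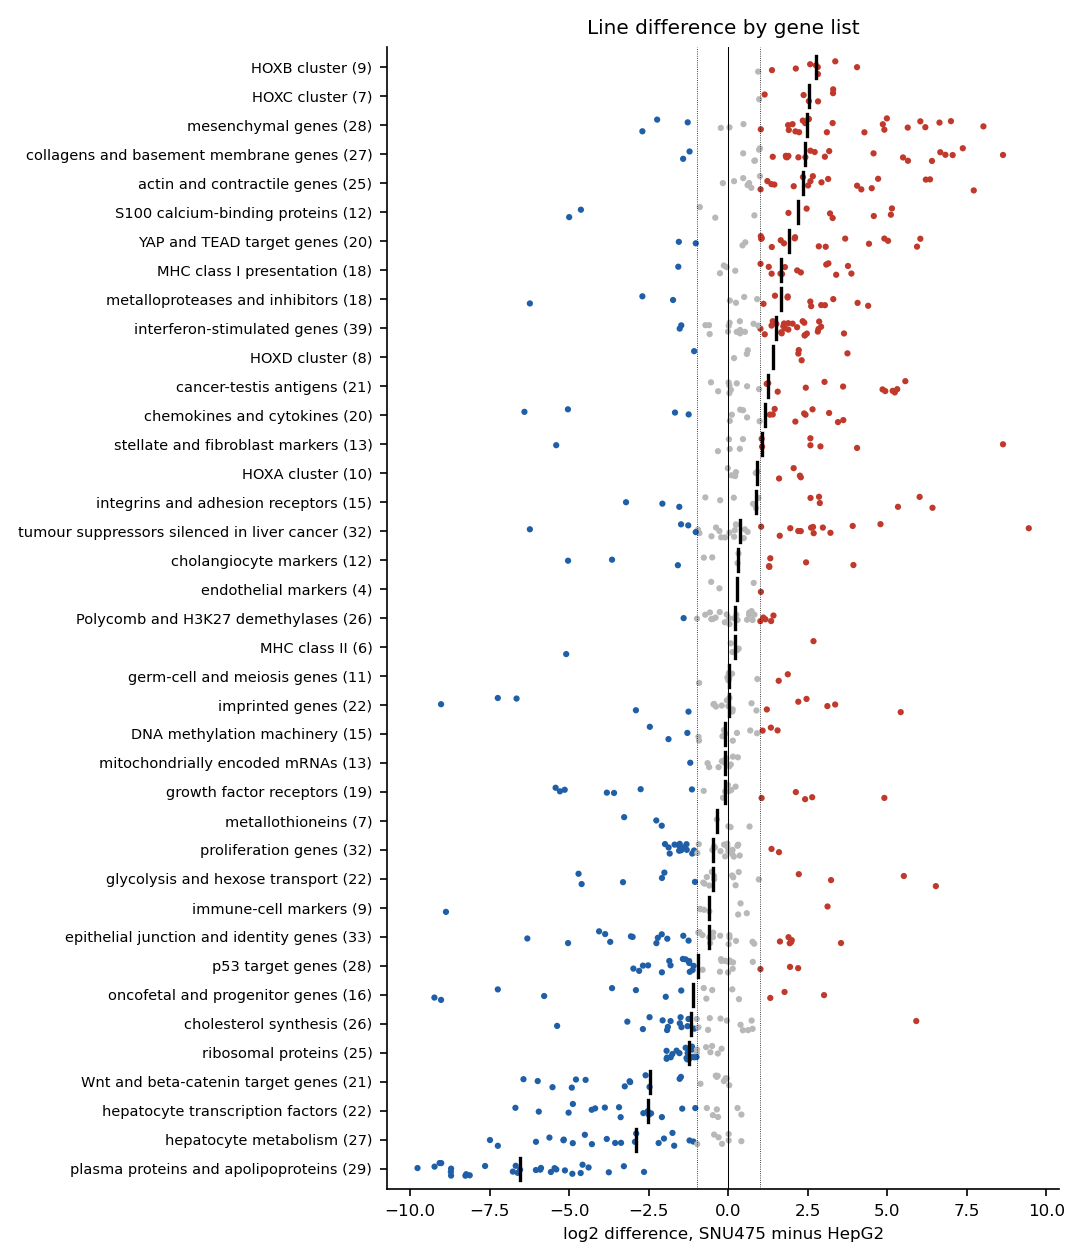
Log2 difference, SNU475 minus HepG2, of every tested member of 39 gene lists, with the number of tested members in brackets; points are genes, red and blue if called at least 2-fold higher in SNU475 or HepG2 and grey if not, black bars are medians, and dotted lines mark 2-fold. The plasma protein list has the lowest median, -6.55, and the HOXB cluster the highest, 2.75, while the ribosomal protein list lies between -1.94 and -0.21.

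Cholesterol synthesis was higher in HepG2. Of 26 genes, 14 were called higher in HepG2 and 1 in SNU475, with a median of -1.16. HMGCS1, an early enzyme of the pathway, was at 84 and 86.9 in HepG2 and 9.29 and 8.71 in SNU475, and ACAT2 at 49.2 and 50.3 against 7.23 and 7.36. The exception was INSIG1, a brake on the pathway, at 30.5 and 29.95 in SNU475 and 0.0178 and 0.00658 in HepG2. Its log2 difference was 5.91 ± 0.04 (adjusted p = 1.04e-20, limma). The SNU398 mean of INSIG1 was 28.3.

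In glycolysis the lines used different isoenzymes. The first-step enzyme HK1 was at 26.5 and 26.9 in SNU475 and 0.104 and 0.0855 in HepG2, where HK2 was higher (-2.09). Phosphofructokinase PFKP was at 93.6 and 96.5 against 0.587 and 0.495, and PFKM had a difference of 3.23 where PFKL had -0.60. The liver pyruvate kinase PKLR was at 13.6 and 13.4 in HepG2 and 0.0554 and 0.0144 in SNU475. The glucose transporters SLC2A3 (28.6 and 28.7 against 0.776 and 0.610) and SLC2A2 (-3.31), the hepatocyte form, were HepG2 genes. Of 22 genes, 4 were called higher in SNU475 and 6 in HepG2.

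Most ribosomal protein genes were lower in SNU475. Of 25 listed, 18 were called higher in HepG2 and 0 in SNU475, with a median of -1.24 and a range from -1.94 to -0.21. RPS6 was at 84.6 and 88.7 in SNU475 and 331 and 339 in HepG2, and RPL3 at 62.3 and 61.6 against 220 and 218. Over all 83 genes named as cytoplasmic ribosomal proteins, 55 were higher in HepG2 and 2 in SNU475, with a median of -1.14 and a range from -2.27 to 3.34. Ribosomal protein genes have many processed copies, so single members are uncertain. The ribosomal list kept a negative median, -1.04, without library scaling. The mitochondrial messages had a median of -0.10, which was 0.10 without scaling and 0.36 with quantile normalization, and 1 of 13 called, MT-ND3. Of 7 metallothioneins, 3 were called higher in HepG2, MT1E, MT1G and MT1F.

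Proliferation genes were more often higher in HepG2. Of 32 proliferation genes, 13 were called higher in HepG2 and 2 in SNU475, with a median of -0.48. CCNE1, the cyclin of S phase entry, was at 12.9 in both HepG2 libraries and 2.84 and 2.88 in SNU475, the replicative helicase subunit MCM3 at 80.4 and 80.9 against 21.4 and 21.7, and PCNA, the DNA polymerase clamp, at 190 and 187 against 57.4 and 58.7. MKI67 was at 13.7 and 14.4 in SNU475 and 12.4 and 12.5 in HepG2, and TOP2A at 42.8 and 42.6 against 57.2 and 57.8. CENPF (1.36) and CCNE2 (1.59) were higher in SNU475. Of 65 replication histone genes, whose messages appear in S phase, 38 were higher in HepG2 and 7 in SNU475. HIST1H3C was at 451 and 419 in HepG2 and 0.668 and 0.411 in SNU475. These genes are near-identical copies, and single members are uncertain.

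The proliferation list did not keep its direction in dosed cells, nor did the glycolysis list (medians of 0.34, 0.74 and 0.30 with decitabine, GSK-126 and both). Between GSK-126 cultures, 24 of 32 were higher in SNU475 and 0 in HepG2, with a median of 1.32. Between combination cultures it was 14 and 1, and between decitabine cultures 7 and 2. Other lists changed sign in some conditions. The cancer-testis median went from 1.25 in DPBS to -0.02 with both drugs, with 9 genes higher in SNU475 and 4 in HepG2. With decitabine or GSK-126 alone that median was 1.29 and 1.76. The biliary median went from 0.30 to -1.02 with both drugs, and that of mitochondrial messages from -0.10 to 0.97 with decitabine. Harvest day and line cannot be told apart in these contrasts either.

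Of 28 p53 targets, 14 were called higher in HepG2 and 3 in SNU475, with a median of -0.95. MDM2, the ubiquitin ligase of p53, was at 21.8 and 22.8 in HepG2 and 9.73 and 8.91 in SNU475. GDF15, a stress cytokine, was at 39.6 and 39.1 against 4.73 and 4.33, and FDXR at 12.9 and 12.1 against 1.82 and 1.70. The cell cycle inhibitor CDKN1A did not pass the test, at 18.9 and 18.2 in HepG2 and 19.3 and 18.9 in SNU475 (adjusted p = 0.53, limma). Without library scaling it did, with a log2 difference of 0.24 (adjusted p = 0.000705).

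Markers of other liver cells were examined because bulk RNA cannot tell cell types from cell states. Of 13 tested stellate and fibroblast markers, 7 were called higher in SNU475 and 1, RELN, in HepG2, and the summed level was 305 and 307 against 37.5 and 37.8. Most of that sum was COL3A1. LUM, a stromal proteoglycan, was at 7.99 and 8.38 in SNU475, and the pericyte receptor PDGFRB had a difference of 0.02. ACTA2, the stellate actin, was at 47.1 and 49.7 against 7.82 and 7.55. Endothelial markers summed to 1.47 and 1.41 in SNU475 and 0.733 and 0.663 in HepG2 over 4 tested genes, near 0 in both. The immune list summed to between 13 and 14.1 in SNU475 and to 440 and 453 in HepG2, nearly all from the lysozyme gene LYZ in HepG2 (437 and 450), while CD14 was at 12.1 and 12.2 in SNU475 against 0.887 and 1.02. Biliary markers split 5 and 3, with SOX9 in HepG2 (63.7 and 63.3 against 4.70 and 4.44) and SPP1 in SNU475 (68.1 and 71.8 against 12.1 and 12.8).

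Among non-coding genes of at least 200 bases, TERC, the template RNA of telomerase (hg19 chr3:169482308-169482848), had the lowest difference on this scale. It was at 100.9 and 95.8 in HepG2 and 0.834 (A) and 0.244 (B) in SNU475, a log2 difference of -6.63 ± 0.19 (adjusted p = 4.7e-14, limma). The SNU398 mean was 13.4. LINC00261, a long non-coding gene next to FOXA2, was at 39.5 in both HepG2 libraries and 0.230 and 0.0202 in SNU475. The highest 3 were NEFL, filed as a processed transcript (17.2 in both SNU475 libraries against 0 and 0.00548), and the pseudogenes TMSB4XP8 and CTD-2328D6.1. TMSB4XP8 is a copy of TMSB4X and uncertain. CTD-2328D6.1 differed between the SNU475 replicates, at 4.89 and 37.3, and did not pass with voom (adjusted p = 0.0947). By class, 66 of 282 snoRNA genes were higher in HepG2 and 8 in SNU475. Of 1156 lincRNA genes, 236 were higher in SNU475 and 161 in HepG2, near the shares over all genes (17.8% and 14.6%).

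Differences also followed the chromosomes. Over the protein-coding genes with at least 5 RPKM in both lines the median was 0.03. On chromosome 16 it was -0.54 over 169 genes, with 16.6% of them higher in SNU475, and on chromosome 22 it was -0.33. Chromosome 18 had 0.56 over 53 genes, chromosome X 0.46 and chromosome 1 0.33. The order was similar between dosed cultures: chromosome 16 had -0.56, -0.50 and -0.70 and chromosome 18 0.55, 0.64 and 0.62 with decitabine, GSK-126 and both. In consecutive groups of 25 to 29 genes, all 6 of chromosome 16 were negative, from -1.23 (NUBP1 to MAZ) to -0.39. On chromosome 1 the medians from ANP32E to GUK1 lay between 0.57 and 1.03, highest from LAMC1 to SLC30A1, while the first 11 groups lay between -0.17 and 0.41. On chromosome 18 the first group had 0.81 and the second -0.02. These groups were laid out after the chromosome medians were seen. DNA copy number was not measured here.

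Repeat families were summed over loci as reads per 1e6 reads (RPM), without gene scaling. Of 843 subfamilies tested, 98 were at least 2-fold higher in SNU475 (11.6%) and 39 in HepG2 (4.63%), and the median log2 difference was 0.37. With the size factors of the genes applied, the numbers were 75 and 47. Outside gene bodies, 89 of 585 were higher in SNU475 (15.2%) and 29 in HepG2 (4.96%). LINE elements, the family that still copies itself in the human genome, had 21 of 135 higher in SNU475 and 1 in HepG2. LTR elements, remnants of retroviruses, had 58 of 445 higher in SNU475 and 35 in HepG2. SINE elements had 0 and 1 of 46, and SVA elements 0 and 0 of 6.

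The youngest LINE subfamilies were higher in SNU475. L1HS was at 16.97 and 15.5 RPM in SNU475 and 3.38 and 3.52 in HepG2, and L1PA2 at 108 and 111 against 15.8 and 15.5, with a log2 difference of 2.77 for L1PA2. Outside genes, L1PA2 was at 45.7 against 5.13 RPM. Its reads were spread, with 39 loci of at least 0.5 RPM in SNU475 and 3.93% of the sum from the highest locus. Young copies are nearly identical, so the share of reads placed at the right locus is uncertain. The satellite SST1 was at 22.4 and 23.6 RPM against 1.28 and 1.19, also spread over loci, and HERVH-int, an internal retroviral sequence, was at 62.2 and 63.2 against 12.3 and 11.2. AluY did not pass the test (673 and 640 against 637 and 641, adjusted p = 0.432, limma).

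Several subfamilies with large differences drew most of their reads from 1 locus inside a gene that itself differed. L1M4c was at 1173 and 1135 RPM in SNU475 and 134 and 140 in HepG2, but 85.7% of its SNU475 sum came from a locus in MALAT1, a nuclear non-coding RNA at 975 and 946 scaled RPKM against 69.8 and 69.7. In the same way 94.7% of MST-int lay in HLA-E. In HepG2, 83.6% of LTR12D (325 and 303 RPM against 6.84 and 4.54) and 82.0% of HERV9-int came from loci in DHRS2, a dehydrogenase gene at 306 and 302 against 2.18 and 0.228. Outside genes the log2 difference of LTR12D was -0.67, while HERV9-int stayed at -2.62 there, with 27.2 RPM in HepG2 and 4.03 in SNU475. HERVK-int (238 and 240 RPM against 10.8 and 9.86) had 91.2% from a locus in FGL1, a liver secreted protein, and outside genes it still differed by -2.32, with 20.1 RPM in HepG2 and 3.63 in SNU475. LTR12C was broader, at 182 and 173 RPM in HepG2 and 57.5 and 60.4 in SNU475, with 48 and 18 loci of at least 0.5 RPM. Its highest locus, 46.1% of the HepG2 sum, lay outside genes, and its log2 difference outside genes was -2.58. Of the 98 subfamilies higher in SNU475, 61 could be tested outside genes and 31 were called in the same direction there, and of the 39 higher in HepG2, 25 and 16.

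**Figure D5:**
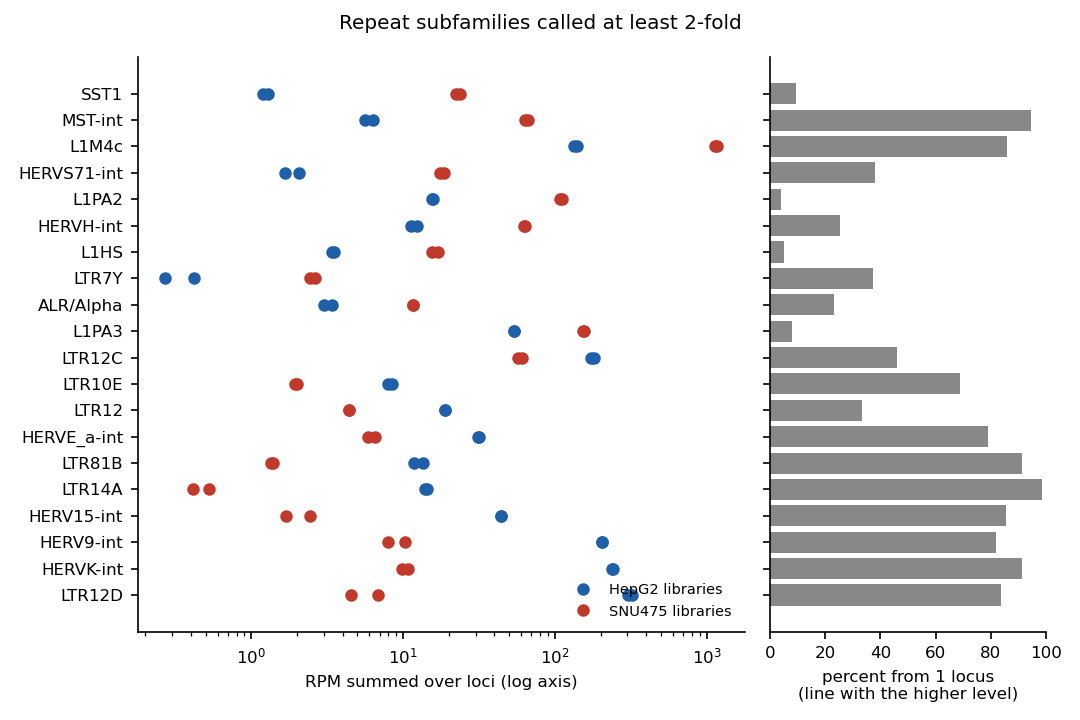
Named repeat subfamilies called at least 2-fold; left, RPM summed over loci in each library on a log axis (HepG2 blue, SNU475 red), and right, the percent of that sum from the single highest locus in the line with the higher level. L1PA2, L1HS and SST1 draw under 10% from 1 locus, whereas LTR12D, HERVK-int, MST-int and L1M4c draw over 80%.

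The same contrast between lines was made in the dosed libraries. The group means share no library with the DPBS comparison. The calls are not independent of it, since both come from the same fit of all 24 libraries, with shared variance, filter and scaling. Of the 3450 genes higher in untreated SNU475, 2546 were called the same way with decitabine (73.8%, where 16.4% of all genes were), 2579 with GSK-126 (74.8%, against 17.7%) and 2278 with both (66.03%, against 16.3%). Of the 2825 higher in untreated HepG2, 2229, 2294 and 2108 were (78.9%, 81.2% and 74.6%, against 17.8%, 17.1% and 18.2%). In all 3 dosed conditions 2004 and 1889 kept their call. Opposite calls were few, between 4 and 18 per condition and direction. The plasma protein list had 29 of 29 higher in HepG2 in each dosed condition, with medians from -7.40 to -7.24, and the mesenchymal list medians from 2.27 to 2.63. The epithelial list moved more, from a median of -0.60 in DPBS to -2.06 with both drugs.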

How the data were processed

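Total RNA depleted of ribosomal RNA was made into stranded libraries and read as single reads of 75 bases, per the labels' protocols. Reads were aligned to hg19 with HISAT2 and counted with featureCounts, per the submitters' processing notes. Which tool versions, annotation, strand setting and treatment of reads with several matches were used is not given in the sources used here. The authors deposited RPKM for 63677 genes and for 5298130 repeat loci. Steps between low RPKM values gave whole reads for nearly all values (tolerance 0.15), and these recovered reads served an alternative fit with voom.

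Genes with at least 0.5 RPKM in at least 2 of 24 libraries were tested (19377). RPKM was divided by median-of-ratios factors over 8211 genes with at least 1 RPKM in every library, and log2 of scaled RPKM plus 0.5 was fitted in limma 3.58.1 with a mean for each of 12 groups (12 residual degrees of freedom, with trend and robust empirical Bayes). Every adjusted p is limma's two-sided p after Benjamini-Hochberg adjustment across the genes, or subfamilies, tested. On simulated data 99 of 100 genes changed 2-fold and 100 of 100 changed 4-fold were recovered, and 8 of 19177 unchanged genes were called. The simulated libraries had the same setting of spread for all genes and no difference between groups beyond the planted changes. Those changes were in genes with a mean of at least 1 RPKM. The simulation therefore does not give the recovery or the false calls of the real comparison, where most genes differed. Repeat loci were summed per subfamily as RPM, with 0.5 added, and tested where at least 1 RPM was reached in at least 2 libraries.

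Members and gene lists were chosen with earlier results of these data known. Genes are named by a rule: the DNA methyltransferases with UHRF1, EZH2 with its partners EED and SUZ12, the 12 highest and 12 lowest differences of called coding genes with at least 5 scaled RPKM in the higher line and no overlap of libraries, each list's defining members and up to 4 called members with the largest difference, the 3 highest and 3 lowest called non-coding genes of at least 200 bases at that level, the 5 most abundant coding genes of each line outside mitochondrial genes, the 5 highest and 5 lowest called repeat subfamilies of at least 5 RPM, and genes of at least 5 scaled RPKM in 1 line listed at 0 in the other. Genes on Y and XIST are not analysed here. Genes named beyond it, such as MALAT1, DHRS2, FN1 and the list members given with a difference only, were chosen after their values were seen. Replicate letters were not stated to pair samples. Alternatives covered the added constant, scaling, filters, the libraries fitted, a replicate block, voom and leaving out each library.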

Additional observations from a re-analysis of the deposited data

Results flagged for a closer look

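Some named genes were called at least 2-fold one way between untreated lines and at least 2-fold the other way between dosed lines, and the change in the line difference itself passed limma's test. PCNA, the polymerase clamp, had a difference of -1.69 in DPBS and 1.06 with GSK-126, a change of 2.75 (adjusted p = 6.54e-16), with GSK-126 means of 76.3 in SNU475 and 36.4 in HepG2. The mitochondrial gene MT-ND3 went from -1.20 to 1.06 with both drugs, a change of 2.26 (adjusted p = 3.475e-11). ESAM, an endothelial adhesion gene, went from 1.02 to -1.26 with both drugs, a change of -2.29 (adjusted p = 1.69e-11), with means of 0.521 in SNU475 and 1.95 in HepG2. Its DPBS levels were low, at 0.989 and 0.957 in SNU475 against 0.254 and 0.197 in HepG2. The DPBS difference of ESAM was under 2-fold with an added constant of 1 (0.69), with quantile normalization (0.81) and without HepG2 replicate B (0.97). These changes share their DPBS libraries. With 2 libraries a group, no test for an outlying library within a group was run.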

How the results depend on the processing

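Counts of genes at least 2-fold higher ranged over the alternatives from 2594 (added constant of 1) to 5084 (voom) in SNU475, main value 3450, and from 2217 to 4154 in HepG2, main value 2825. Called at any size were 13591 (at least 1 RPKM in 2 libraries) to 18377 genes (no filter). All of these stayed within 1.5 times the reported counts. Leaving out each DPBS library in turn gave 3451 to 3466 genes higher in SNU475, 2799 to 2846 higher in HepG2 and 14781 to 14806 at any size. Genes with the same 2-fold call in DPBS and all 3 dosed conditions numbered 3893, and 6073 with voom. Repeat subfamilies higher in SNU475 numbered 59 instead of 98 with at least 5 RPM in 2 libraries, where fewer subfamilies were tested, and 96 to 106 (HepG2: 37 to 41) when a library was left out. The dosed count then ran from 3873 to 3911. Of 222 named genes, 5 changed sign under some setting: DNMT1 (0.0512), DNMT3B (0.08) and RASSF1 (0.06) without scaling, FBP1 with quantile normalization (-0.21), without SNU475 replicate B (-0.04) and without HepG2 replicate B (-0.03), and H19 with quantile normalization (-0.01) and without HepG2 replicate A (-0.75, against 0.998 without replicate B). The call of 9 genes changed: CDKN1A, DNMT3B, RASSF1, FBP1 and H19 passed under some setting, and DNMT1 without scaling, CTD-2328D6.1 with voom, FGFR1 without HepG2 replicate A and KRT19 without scaling or with a constant of 0.1 no longer did. The causes were not tested. A replicate block gave 3452 and 2827 genes, 15378 at any size, 3893 in all conditions and 98 and 39 repeat subfamilies. Deviations of replicates A correlated at -0.045 between the lines. This value cannot show whether the letters mark shared batches, which was not tested. The line difference of genes under about 0.5 RPKM is limited by the added constant, and day of harvest cannot be separated from line.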

Other observations

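Antioxidant and pentose phosphate genes, a group looked up after AKR1B10 appeared among the most abundant SNU475 genes, were mostly higher in SNU475. Of 17 such genes, 15 were called at least 2-fold higher in SNU475 and 0 in HepG2, with a median log2 difference of 2.39, and no test of the group was made. AKR1B10, an aldo-keto reductase, was at 845 and 834 scaled RPKM in SNU475 and 15.99 and 16.7 in HepG2. Thioredoxin reductase TXNRD1 was at 277 and 274 against 19.3 and 19.6, and NQO1, a quinone reductase, at 544 and 537 against 83.4 and 85.0. Malic enzyme ME1, another source of NADPH, was at 38.9 and 37.98 against 0.00666 and 0.00658. HMOX1, the haem-degrading enzyme, did not share the direction, at 8.69 and 8.41 against 12.4 in both HepG2 libraries. The SNU398 means of AKR1B10 and NQO1 were 0.315 and 0.407.

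The ferritin light chain FTL, which stores iron, was the most abundant nuclear coding gene of SNU475, at 8754 and 8982, and stood at 2707 and 2623 in HepG2, while the SNU398 mean was 177. Some short rows of the table differed widely between the SNU475 replicates. AC079949.1, a row of 57 bases filed as a miRNA, was at 2039 (A) and 15040 (B) in SNU475 and 9.78 and 10.1 in HepG2, and AL161626.1, also of 57 bases, at 988 and 6617 against 6.77 and 9.26. TERT, the protein partner of TERC, was at 0.254 and 0.201 in SNU475 and 0.851 and 0.691 in HepG2.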
